A study of Mus musculus with 6 samples.

Results

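The mucosal and collagen-binding integrins are 6 adhesion receptor chains, Itgae, Itgb7, Itga4, Itgb1, Itga2 and Itga1, out of the 17097 genes named by the platform annotation. Their probe sets were taken by gene symbol, as every probe set whose single symbol was 1 of these 6, which gave 14 of the 45141 probe sets on the array. Effector memory T cells (CD3+ CD62L- CD44high) were sorted from the blood of 3 female C57BL/6 mice aged 6 to 8 weeks, labelled A, C and D, and divided into a CD11c+ and a CD11c- fraction. Each fraction of each mouse, 300 cells, was amplified and measured on 1 Affymetrix array, so that there were 3 CD11c+ and 3 CD11c- arrays paired by mouse. According to the labels the females had received 3 mg of Depo-Provera, a long-acting progestin, to align their cycles, and the labels name no group without it. All values are log2 signals of RNA, on which a difference of 1 is a doubling, and the arrays do not measure surface protein. Differences are CD11c+ minus CD11c-, and the limma p-values, from a fit that blocks on the mouse, are adjusted by Benjamini-Hochberg across the whole array.

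Integrins are pairs of an α and a β chain that hold cells to other cells or to the matrix, and the pairing of the chains sets what is bound. Itgae encodes αE (CD103), which pairs with β7 and binds E-cadherin on epithelial cells, and is known on intraepithelial and tissue-resident T cells, on regulatory T cells and on some dendritic cells. The α4 chain pairs with β7 to bind the gut vessel addressin MAdCAM-1, and with β1 to bind VCAM-1 and fibronectin. The α1 and α2 chains (CD49a and CD49b) pair with β1 only and bind collagens, and CD49b is a common marker of mouse NK cells and basophils that is also carried by platelets and some memory T cells.

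Itga2 and Itga1 are neighbours on chromosome 13, and Itgb1, on chromosome 8, encodes the chain that both of their products need. The 250 bases before the RefSeq start of these 3 genes are shown because they encode the collagen-binding pairs. The α chain genes of those pairs had the higher signals in CD11c+ cells described below. The windows are chr13:114932101-114932350 (minus strand) for Itga2, chr13:115101965-115102214 (minus strand) for Itga1 and chr8:128685404-128685653 (plus strand) for Itgb1, in build GRCm38.p6, written 5′ to 3′ on the strand of the gene. Capitals mark matches, on either strand, to short motifs of 6 kinds of transcription factor that are spelled out after the sequences.
Itga2: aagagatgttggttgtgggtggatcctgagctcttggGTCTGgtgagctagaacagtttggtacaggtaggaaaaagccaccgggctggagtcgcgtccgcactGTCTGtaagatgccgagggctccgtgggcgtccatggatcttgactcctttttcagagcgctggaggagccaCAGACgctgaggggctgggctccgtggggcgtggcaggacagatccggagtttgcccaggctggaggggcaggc
Itga1: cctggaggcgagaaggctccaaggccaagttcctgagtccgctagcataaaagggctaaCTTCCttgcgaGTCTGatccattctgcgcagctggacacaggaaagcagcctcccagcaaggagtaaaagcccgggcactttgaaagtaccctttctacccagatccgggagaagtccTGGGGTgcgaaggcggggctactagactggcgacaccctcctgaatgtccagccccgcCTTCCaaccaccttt
Itgb1: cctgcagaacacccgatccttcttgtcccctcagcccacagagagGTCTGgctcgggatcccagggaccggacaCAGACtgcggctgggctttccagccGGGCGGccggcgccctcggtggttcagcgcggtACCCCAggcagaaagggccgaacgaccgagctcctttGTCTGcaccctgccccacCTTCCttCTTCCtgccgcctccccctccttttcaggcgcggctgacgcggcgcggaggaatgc
The SMAD motif searched was CAGAC, held by 42.2% of the 32851 promoter windows of the same length. The RUNX motif was TGNGGT, held by 40.1% of them, and the ETS motif was the letters GGAAG, held by 64.1%. The GC box was GGGCGG, held by 32.7% of all windows. The GATA motif was AGATAA, held by 9.99%, and the AP-1 motif was TGANTCA, held by 6.75% of windows. The Itga2 window held 3 SMAD matches and none of the other 5 motifs. The Itga1 window held 1 RUNX, 2 ETS and 1 SMAD match, and the Itgb1 window held 1 RUNX, 2 ETS, 3 SMAD and 1 GC box match. No matches overlapped. None of these windows held a GATA or AP-1 match. Windows were given for 5 of the 6 genes, and Itgb7 and Itga4 held RUNX and SMAD matches too. A match is a description of the letters and not a site of binding.

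In 3 of 3 mice the Itgae signal was lower, and the Itga2 and Itga1 signals were higher, in CD11c+ than in CD11c- cells, by 1.09, 1.37 and 1.01 on the log2 scale. Of the 14 probe sets 7 were lower and 2 higher in 3 of 3 mice, beside 26.4% and 11.3% of all probe sets. The genes of the partner chains differed less, with -0.37 for Itgb7, -0.36 for Itgb1 and -0.19 for Itga4. None of the 14 probe sets passed an adjusted p of 0.05, beside 1.13% of all probe sets (508 of 45141). Of all probe sets 0.957% passed with a higher signal in CD11c+ cells (432) and 0.168% with a lower one (76). At an unadjusted p under 0.05 there were 5 of 14 (35.7%), beside 13.5% of all probe sets. The values of the CD11c+ and CD11c- arrays did not overlap for 6 of 14 (42.9%), beside 18.9% of all probe sets. These 6 were the single probe sets of Itgae, Itgb7, Itga2 and Itga1 and 2 of the 5 probe sets of Itgb1. Among them, Itga1 and 1426920_PM_x_at of Itgb1 were not above background in either fraction. The median difference over the 14 was -0.15, beside -0.09 over all probe sets. A group mean was called above background when it exceeded 5.58, the 95th percentile over 34 genes that belong to liver, brain, muscle and similar organs. This held in both fractions for 10 of the 14 and in neither for 4. Of all 45141 probe sets it held in both fractions for 12840 and in neither for 29465, so the shares over all probe sets include many dim ones.

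**Figure D1:**
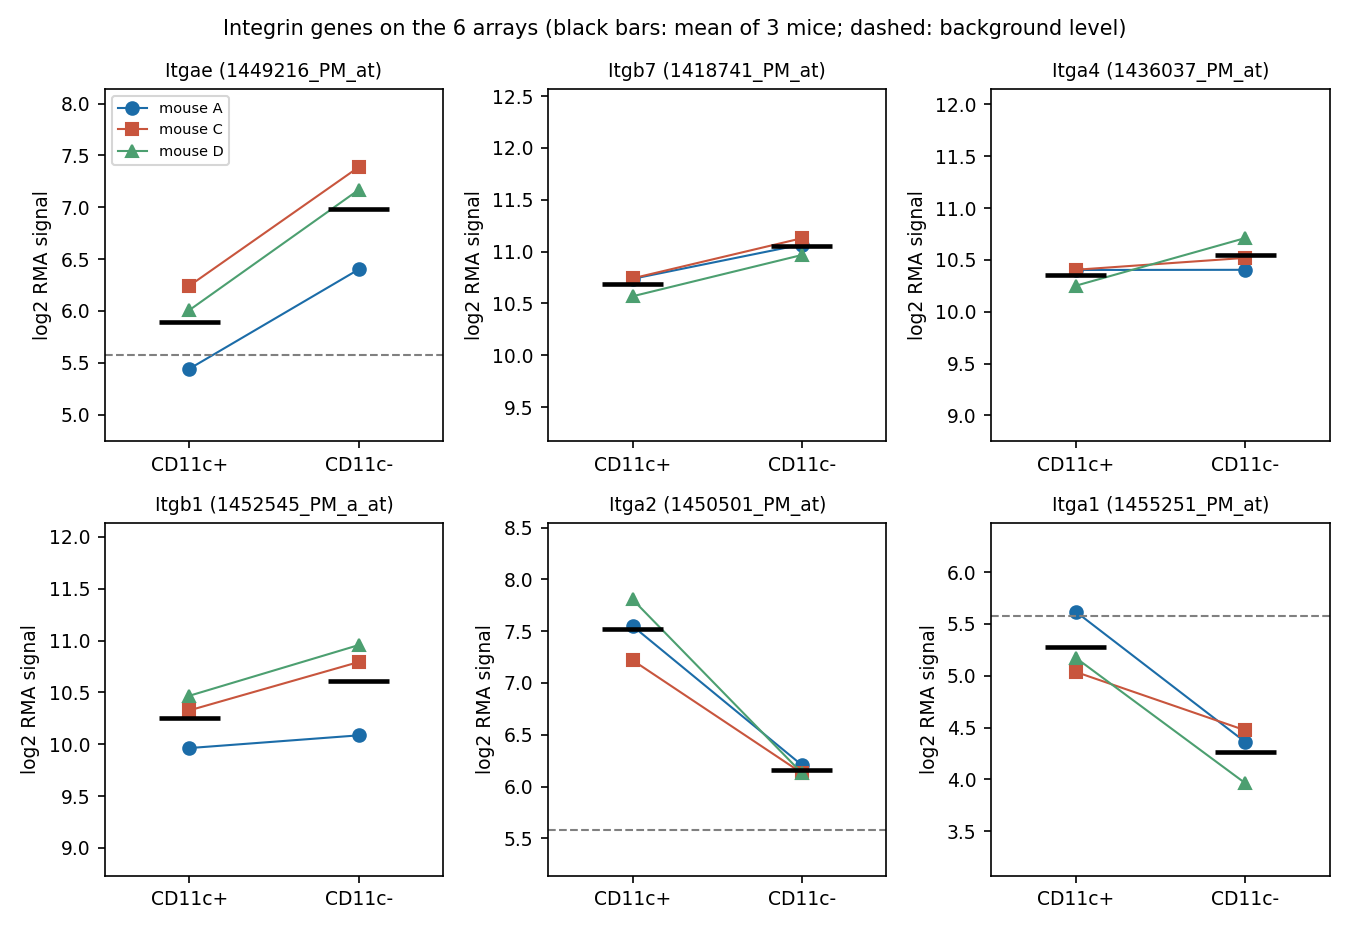
Log2 signal of the highest-mean probe set of each of the 6 integrin genes on every array, CD11c+ left of CD11c-, with lines joining the fractions of 1 mouse. The Itgae lines run higher in CD11c- cells and the Itga2 lines higher in CD11c+ cells in 3 of 3 mice, by 1.09 and 1.37 on average.

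The RNA of the αE chain had lower signal in the CD11c+ fraction of every mouse, and surface CD103 was not measured on these arrays. Itgae read 5.44, 6.24 and 6.01 in CD11c+ cells of mice A, C and D, against 6.40, 7.39 and 7.17 in the CD11c- cells. The highest CD11c+ array, that of mouse C, lay below the lowest CD11c- array, that of mouse A, so the fractions did not overlap. The means were 5.90 ± 0.41 in CD11c+ cells and 6.98 ± 0.52 in CD11c- cells (SD, n = 3 each). The difference was -1.09 (SE 0.131, 95% interval -1.44 to -0.74), a signal 52.9% lower in CD11c+ cells, with a limma adjusted p of 0.0549 that missed the threshold. Within mice A, C and D the differences were -0.96, -1.14 and -1.16, a narrower spread than that among the arrays of either fraction. The CD11c+ mean stood only 0.32 above the background level, with 2 of 3 CD11c+ arrays and 3 of 3 CD11c- arrays above it.

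Itgae passed in 2 of the 13 other ways of processing. When only probe sets above the background level were tested, its difference of -1.09 had an adjusted p of 0.0419, and when each gene was tested once, at the mean of its probe sets, 0.0207. It did not pass in the other 11, with adjusted p from 0.0529 to 0.225, the highest being without mouse C, and 0.215 with no block for the mouse.

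Several marker genes of cells that are known to carry αEβ7 differed between the fractions as well. Of the 9 regulatory T cell genes measured out of 11 listed, 3 fell in CD11c+ cells and 6 did not pass, with a median difference of -1.61, and every one of the 9 was above background in at least 1 fraction. Their summed level, on the linear scale, ran from 977 to 1220 in CD11c+ arrays and from 2546 to 3120 in CD11c- arrays. Foxp3, the lineage factor of regulatory T cells, fell by 2.44 (adjusted p = 0.032), Ctla4, an inhibitory receptor, by 2.86 (adjusted p = 0.0226) and Tnfrsf4, a costimulatory receptor, by 1.72 (adjusted p = 0.042). Of the 14 conventional dendritic cell genes measured out of 16 listed, 6 rose and none fell, and the summed level ran from 5452 to 6809 in CD11c+ arrays and from 1194 to 1889 in CD11c- arrays. The C-type lectin receptor genes Cd209a and Clec10a were not above background in CD11c- cells and were at least 21.8-fold and 9.83-fold higher in CD11c+ cells (adjusted p = 0.0186 and 0.00498), taking a mean below the background level at that level, as for all such bounds. Batf3, a factor of the cross-presenting dendritic cells that carry CD103 in tissues, was above background in CD11c+ cells only and did not pass (adjusted p = 0.12), and Xcr1, the chemokine receptor that defines those cells, was not above background in either fraction. The part of these cells in the Itgae result was not tested, and in sorted bulk samples fewer cells of a type and less RNA per cell cannot be told apart.

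The coreceptors differed too. Cd8b1, the β chain of CD8, rose by 1.43 in CD11c+ cells (adjusted p = 0.0333). Cd8a differed by 1.54 at its highest-mean probe set (adjusted p = 0.151). The paper lists Cd8a among the genes up-regulated in CD11c+ cells, and other Cd8a probe sets are not given here. Cd4 differed by -2.50 (adjusted p = 0.0973), with 8.85, 6.65 and 7.90 in CD11c+ cells against 10.31, 10.09 and 10.51 in CD11c- cells. Of 16 T cell core genes measured out of 20 listed, Cd8b1 rose, Cd6 and Cd5, receptors that dampen antigen receptor signals, fell by 1.85 and 1.62 (adjusted p = 0.0209 and 0.0416), and 13 did not pass. Their summed level ran from 7212 to 8550 in CD11c+ arrays and from 10619 to 11833 in CD11c- arrays.

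The gene of the β7 chain, shared by αEβ7 and α4β7, gave a strong signal in both fractions. Itgb7 read 10.74, 10.74 and 10.57 in CD11c+ cells of mice A, C and D, against 11.07, 11.13 and 10.97 in the CD11c- cells. All 3 CD11c+ arrays lay below all 3 CD11c- arrays. The means were 10.68 ± 0.099 and 11.05 ± 0.082 (SD, n = 3 each) in CD11c+ and CD11c- cells, and the difference was -0.37 (SE 0.124, 95% interval -0.70 to -0.04) with a limma adjusted p of 0.32. The 3 mice differed by -0.33, -0.39 and -0.40. Centring the arrays on the CD3 chains, which adds the same amount to the difference of every probe set and moved their median to 0.65, against -0.09 as deposited, gave 0.37 (adjusted p = 0.192), so any small negative difference turned on that scale.

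The gene of the α4 chain differed least among the 6 genes. At its highest-mean probe set Itga4 read 10.40, 10.41 and 10.25 in CD11c+ cells of mice A, C and D, against 10.41, 10.52 and 10.71 in the CD11c- cells. The fractions overlapped, and in mouse A the 2 arrays differed by -0.0014. The difference was -0.19 (SE 0.154, 95% interval -0.60 to 0.22, limma adjusted p = 0.678). The interval lies on both sides of 0. The 4 other Itga4 probe sets gave differences between -0.03 and -0.11 with adjusted p from 0.78 to 0.965, and all overlapped. At 1 of them, 1421194_PM_at, mouse A differed by 0.34 and mice C and D by -0.46 and -0.21, and another, 1427615_PM_at, was not above background. With the arrays centred on the CD3 chains the main probe set differed by 0.55 (adjusted p = 0.0678), 1421194_PM_at by 0.63 (adjusted p = 0.0522), and 3 others passed, 1456498_PM_at at 0.71 (adjusted p = 0.0385), 1450155_PM_at at 0.63 (adjusted p = 0.0482) and 1427615_PM_at at 0.71 (adjusted p = 0.0435). These values carry the shift of all probe sets on that scale.

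The RNA of the β1 chain, the partner of α1, α2 and α4, was measured by 5 probe sets that did not give the same size of difference. At the highest-mean probe set, 1452545_PM_a_at, Itgb1 read 9.96, 10.33 and 10.47 in CD11c+ cells of mice A, C and D, against 10.09, 10.79 and 10.96 in the CD11c- cells. In both fractions mouse A had the lowest value, and the fractions overlapped although each mouse was lower in its CD11c+ cells. The difference was -0.36 (SE 0.147, 95% interval -0.75 to 0.03, limma adjusted p = 0.414), and with the arrays centred on the CD3 chains it was 0.38 (adjusted p = 0.177). The probe set 1426918_PM_at read 7.65, 7.30 and 7.68 in CD11c+ cells, against 8.27, 8.20 and 8.82 in CD11c- cells. There the fractions did not overlap and the difference was -0.88 (SE 0.16, 95% interval -1.31 to -0.46), with a limma adjusted p of 0.117. The probe set 1427771_PM_x_at gave a difference of -0.40 (adjusted p = 0.473), and the 2 remaining probe sets were not above background in either fraction.

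**Figure D2:**
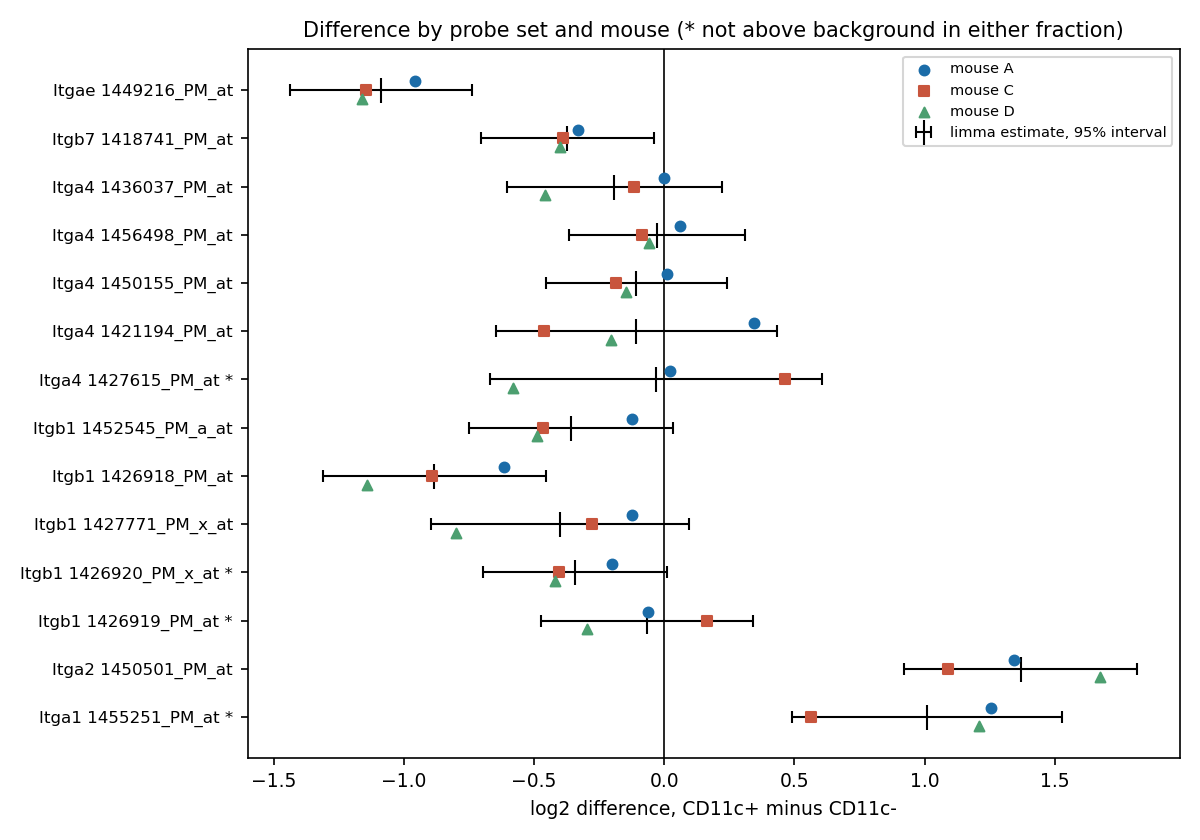
Log2 difference, CD11c+ minus CD11c-, at each of the 14 probe sets, with 1 symbol for each mouse and the limma estimate with its 95% interval in black. The intervals of 5 probe sets leave out 0, those of Itgae, Itgb7, 1 Itgb1 probe set, Itga2 and Itga1.

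The gene of the collagen-binding α2 chain had the highest difference of the 6 genes. Itga2 read 7.55, 7.22 and 7.81 in CD11c+ cells of mice A, C and D, against 6.21, 6.13 and 6.13 in the CD11c- cells. All 3 CD11c+ arrays lay above all 3 CD11c- arrays, and the CD11c- values were nearly equal. The means were 7.53 ± 0.29 in CD11c+ cells and 6.16 ± 0.044 in CD11c- cells (SD, n = 3 each). The CD11c+ mean stood 1.95 above the background level and the CD11c- mean only 0.58. The difference was 1.37 (SE 0.168, 95% interval 0.92 to 1.82), a signal 2.58-fold higher in CD11c+ cells, with a limma adjusted p of 0.0573 that missed the threshold. Within mice A, C and D it was 1.34, 1.09 and 1.67.

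Itga2 passed in 6 of the 13 other ways of processing. Its adjusted p was 0.0426 when only probe sets with a mean above the median were tested, 0.0323 above the background level, 0.0215 at the mean of each gene's probe sets, 0.0164 without the block for the mouse, 0.0117 with the mouse as a random block and 6.76e-05 with the arrays centred on the CD3 chains. It did not pass with cyclic loess (0.0702), median centring (0.0665), a trended (0.0663) or robust (0.064) prior variance, or with any 1 mouse left out (0.121 to 0.245).

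The gene of the α1 chain, the other collagen receptor, had a dim signal. Itga1 read 5.62, 5.04 and 5.17 in CD11c+ cells of mice A, C and D, against 4.36, 4.47 and 3.97 in the CD11c- cells. The fractions did not overlap, and only the CD11c+ array of mouse A exceeded the background level. The difference was 1.01 (SE 0.194, 95% interval 0.49 to 1.53, limma adjusted p = 0.129), and within mice A, C and D it was 1.26, 0.56 and 1.21. No fold is given because neither mean, 5.28 ± 0.30 in CD11c+ cells or 4.27 ± 0.27 in CD11c- cells (SD, n = 3 each), was above background. RefSeq places Pelo, which encodes a factor that rescues stalled ribosomes, within the Itga1 gene, and its own probe set was above background in CD11c+ cells only and did not pass (adjusted p = 0.225).

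Markers of NK cells and basophils, cells known to carry α2, were measured beside Itga2. Of 14 NK cell genes out of 18 listed, each at its highest-mean probe set, 2 rose, 1 fell and 11 did not pass. Their summed level ran from 3313 to 4067 in CD11c+ arrays and from 1831 to 2275 in CD11c- arrays. Eomes, which directs NK cell and memory CD8 T cell development, was not above background in CD11c- cells and was at least 3.32-fold higher in CD11c+ cells (adjusted p = 0.0225). Klrd1, the CD94 receptor chain, rose by 1.59 (adjusted p = 0.0344). Klrb1c, the NK1.1 receptor, was not above background in CD11c+ cells and was at least 2.36-fold lower there (adjusted p = 0.042). Klrb1b, of the same family, differed by 1.38 (adjusted p = 0.2) at a probe set not above background in either fraction. The paper lists Klrb1b as up-regulated in CD11c+ cells, and also Cd244, which was not measured by symbol here. Of 15 basophil and mast cell genes out of 18 listed, 8 rose and none fell, with summed levels from 2952 to 4785 in CD11c+ arrays and from 245 to 284 in CD11c- arrays. None of the 15 was above background in CD11c- cells, and 6 were not above it in either fraction, among them the mast cell tryptase (granule protease) genes. In CD11c+ cells Ms4a2, the β chain of the IgE receptor, was at least 14.1-fold higher (adjusted p = 0.00554), Gata2, a transcription factor of that lineage, at least 19.3-fold (adjusted p = 0.00829), Cpa3, a granule protease, at least 7.43-fold (adjusted p = 0.00554), and Hdc, the histamine-forming enzyme, at least 19.5-fold (adjusted p = 0.00629). Of 11 platelet genes out of 15 listed only Itga2b rose, 7 were not above background in either fraction, and the summed level ran from 687 to 928 in CD11c+ arrays and from 585 to 719 in CD11c- arrays. The part of these cells in the Itga2 and Itga1 results was not tested. In the plot of marker genes, the differences of genes not above background in 1 fraction are fitted values and not measured sizes.

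**Figure D3:**
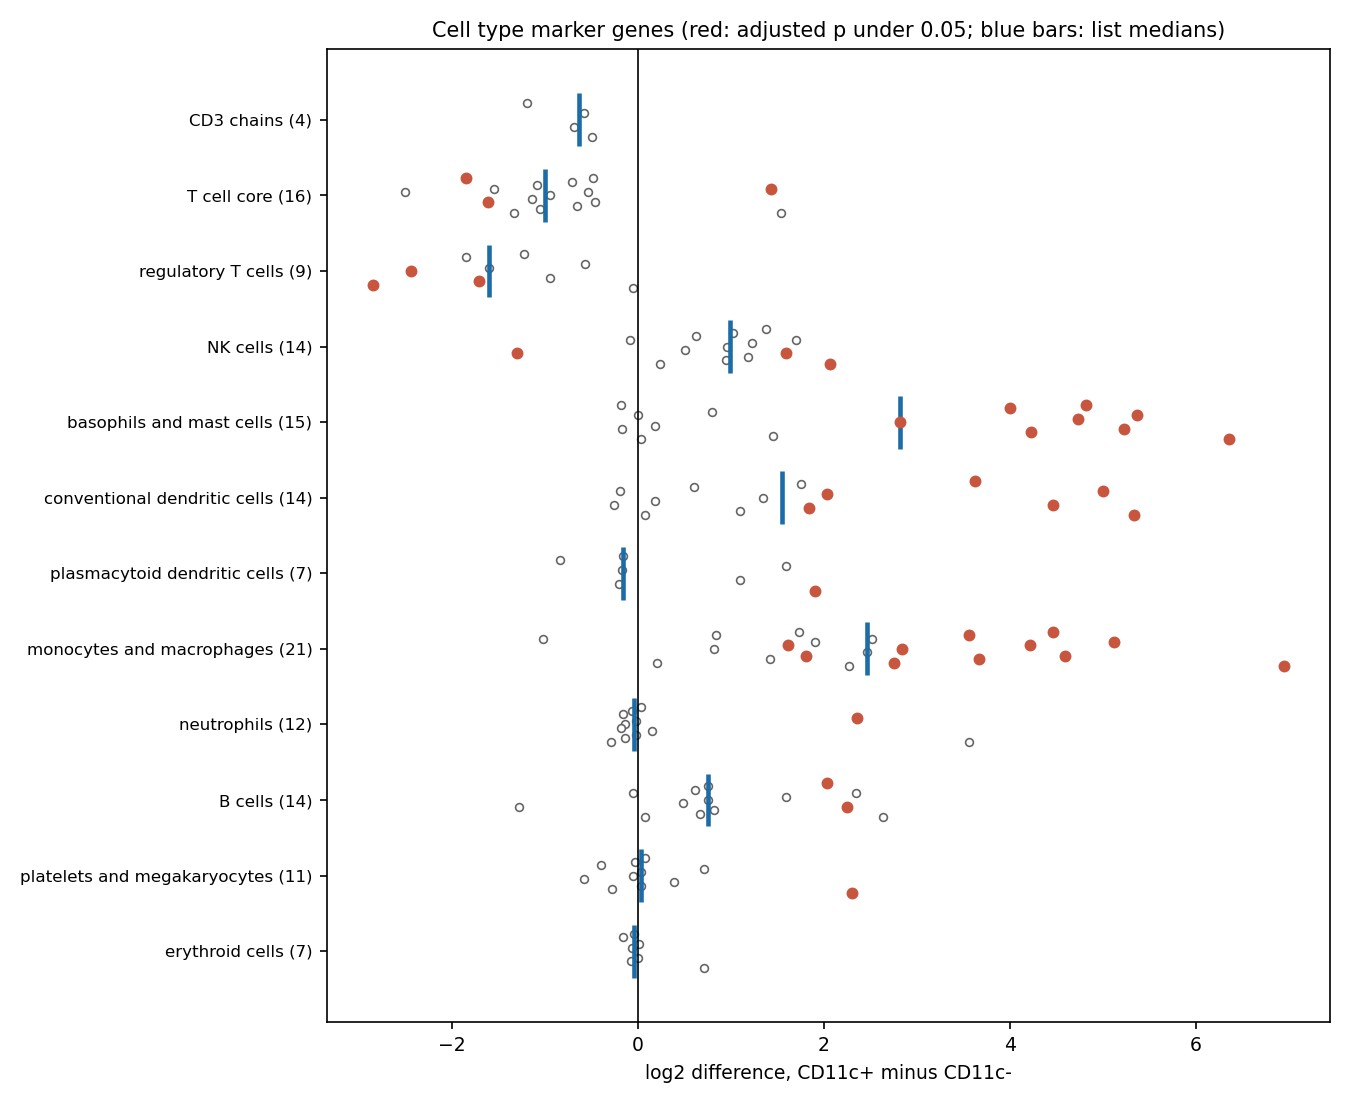
Log2 difference, CD11c+ minus CD11c-, of each marker gene by cell type, with the number of genes measured in parentheses, genes past an adjusted p of 0.05 in red and list medians as blue bars. The regulatory T cell median lies at -1.61, and 8 of 15 basophil and mast cell genes are past the threshold at the high end.

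Over the whole series, the fractions carried the gene of the sorting marker as labelled. Itgax, which encodes CD11c, averaged 8.97 ± 0.074 in CD11c+ cells and 4.60 ± 1.05 in CD11c- cells (SD, n = 3 each), where the CD11c- array of mouse A was the highest of its fraction. The 4 CD3 chains were above background in both fractions, with differences from -1.19 to -0.49 (median -0.64) that did not pass. Each was lower in CD11c+ cells in 3 of 3 mice without overlap. Their summed level ran from 4012 to 4837 in CD11c+ arrays and from 6937 to 7616 in CD11c- arrays. Of 21 monocyte and macrophage genes 11 rose, with summed levels from 7373 to 9139 in CD11c+ arrays and from 2081 to 2543 in CD11c- arrays. Counted once for each gene, 240 of 17097 genes rose (1.4%) and 38 fell (0.222%), 1.63% in all. Without mouse A no probe set passed, 5563 having an unadjusted limma p under 0.05.

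Among the other integrin chains, 3 of 12 α chains measured out of 14 listed rose, and 9 did not pass. The 3 include Itgax, the gene of the sorting marker, whose rise follows from the sort. Itgax and Itgam, the α chain of the complement receptor Mac-1, were above background in CD11c+ cells only, at least 10.5-fold and 4.49-fold higher there (adjusted p = 0.0387 and 0.00554). Itga2b, the platelet fibrinogen receptor α chain, rose by 2.30 (adjusted p = 0.049). Itga7, a laminin receptor chain, was above background in CD11c- cells only and did not pass (adjusted p = 0.0602). None of the 7 genes measured in a list of 6 other β chains and 2 β1-binding proteins passed. Itgb5, a chain that pairs with αV, was above background in CD11c+ cells only (adjusted p = 0.155).

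Of the 23 ligand genes measured out of 25 listed, 21 were not above background in either fraction, among them the genes of MAdCAM-1 and VCAM-1 and those of the collagens. The exception that passed was Cdh1, which encodes E-cadherin, the ligand of αEβ7. It read 5.87, 6.08 and 7.14 in CD11c+ cells of mice A, C and D, against 3.18, 3.09 and 3.12 in the CD11c- cells. All CD11c+ arrays were above the background level and no CD11c- array was. Cdh1 was at least 1.72-fold higher in CD11c+ cells (adjusted p = 0.0318), taking the CD11c- mean at the background level. Fn1, the fibronectin gene, was not above background in either fraction (adjusted p = 0.291).

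Of 43 genes of integrin activation and adhesion measured out of 50 listed, 1 rose and none fell, with a median difference of -0.01. The gene that rose was Vcl, which encodes vinculin, a link between integrin tails and actin. It read 8.12, 8.57 and 8.81 in CD11c+ cells of mice A, C and D, against 6.74, 6.71 and 6.69 in the CD11c- cells, a difference of 1.79 (adjusted p = 0.0449). Skap2, an adaptor for integrin activation in myeloid cells, was above background in CD11c+ cells only and did not pass (adjusted p = 0.0538). Rasgrp1, an exchange factor upstream of Ras in T cells, and Actn1, an actin cross-linker at adhesions, differed by -1.30 and -1.29 (adjusted p = 0.0738 and 0.0867).

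None of the 26 genes measured out of 30 listed for tissue residency and for control of CD103 by TGF-β, the cytokine known to induce it, passed the test. Tgfb1, the cytokine gene, read 9.25, 9.48 and 9.41 in CD11c+ cells of mice A, C and D, against 8.25, 8.60 and 8.23 in the CD11c- cells. All CD11c+ arrays lay above all CD11c- arrays, and the difference was 1.02 (adjusted p = 0.0669). The receptor chains Tgfbr2 and Tgfbr3 differed by -0.60 and -1.08 (adjusted p = 0.185 and 0.302). S1pr1, the receptor that lets T cells leave tissue into blood, averaged 9.18 ± 0.24 in CD11c+ cells and 10.18 ± 0.17 in CD11c- cells (SD, n = 3 each), a difference that did not pass in limma (adjusted p = 0.0957).

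Of 18 homing receptor genes measured out of 23 listed, 1 fell and none rose. Ccr6, a chemokine receptor of mucosal homing, read 7.52, 7.28 and 5.75 in CD11c+ cells of mice A, C and D, against 9.76, 9.78 and 9.16 in the CD11c- cells. The fractions did not overlap, and Ccr6 fell by 2.72 (adjusted p = 0.0363). Ccr4, a receptor of homing to skin, and Ccr10, a receptor of homing to skin and mucosa, differed by -2.98 and -1.05 (adjusted p = 0.074 and 0.311). Cx3cr1 and Ccr2, receptors of effector T cells and monocytes, differed by 2.26 and 0.83 (adjusted p = 0.0884 and 0.0936).

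**Figure D4:**
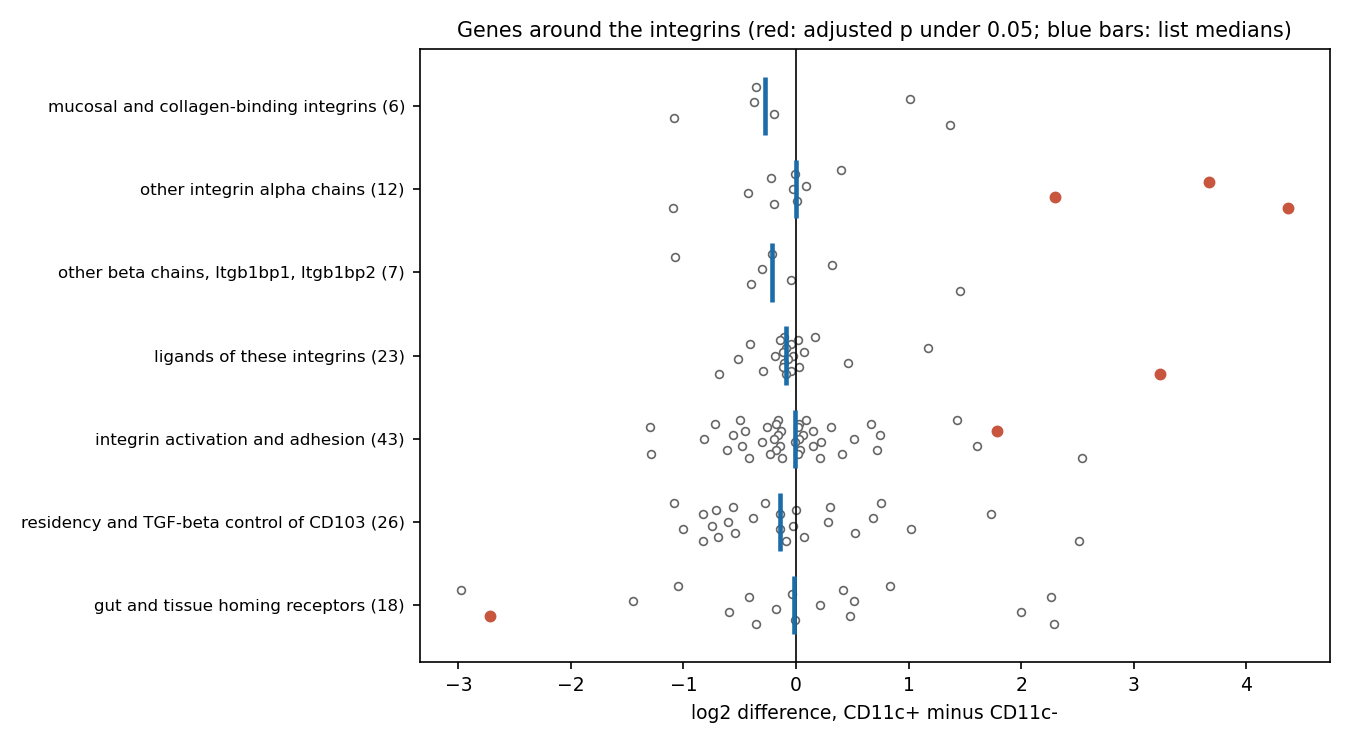
Log2 difference, CD11c+ minus CD11c-, of the 6 integrin genes and of the genes around them, with the number measured in parentheses, genes past an adjusted p of 0.05 in red and list medians as blue bars. The genes past the threshold are 3 α chains, Cdh1 and Vcl at the high end and Ccr6 at the low end. The α chains include Itgax, the gene of the sorting marker.

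The genes whose values ran closest to each integrin were found by the root mean square distance, in log2 units, between values centred on each gene's own mean over the 6 arrays. For Itgae the nearest of 7351 genes above background in at least 1 fraction were 2410002F23Rik (0.118), Mkrn1 (0.184) and 1700097N02Rik (0.185). For Itgb7 they were Pacs1 (0.0333), Slfn1 (0.0404) and Ikzf3 (0.0473), for Itga4 Lrp10 (0.049), Erdr1 (0.0537) and Lrrfip1 (0.0561), and for Itgb1 Ccng1 (0.0841), Galk2 (0.0891) and Hspa9 (0.0957). For Itga2 they were Dusp1 (0.133), Cd160 (0.147) and Iqsec1 (0.151), of which Iqsec1, an exchange factor for the small GTPase Arf6, rose by 1.35 (adjusted p = 0.0396). Cd160 encodes a receptor of NK cells and cytotoxic T cells and differed by 1.23 (adjusted p = 0.114). For Itga1 they were Mapkapk2 (0.0776), Sik1 (0.122) and Slc27a4 (0.162). The distances rest on the same 6 arrays and describe these libraries. Genes were picked for closeness to an integrin's values, so a similar difference between the fractions follows from that choice.

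**Figure D5:**
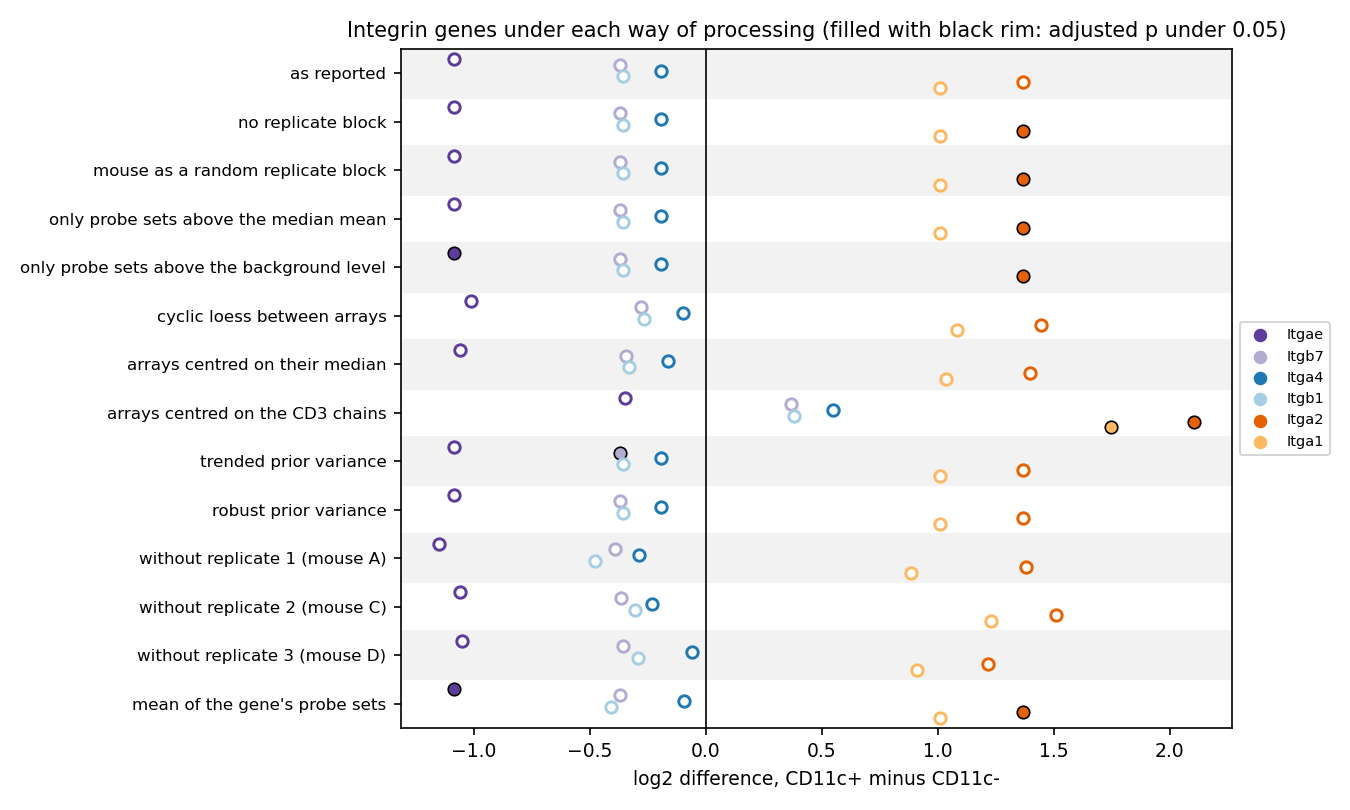
Log2 difference, CD11c+ minus CD11c-, of the 6 integrin genes under each way of processing, with filled points for an adjusted p under 0.05. Itga2 and Itga1 lie above 0 and Itgae below 0 in every row with a value, whereas Itgb7, Itga4 and Itgb1 lie above 0 only where the arrays were centred on the CD3 chains.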

How the data were processed

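The authors sorted 300 cells for each sample, amplified their cDNA and hybridised it to 1 single-colour array. The deposited values are log2 signals that the authors normalized and summarized by RMA, which makes the arrays' distributions alike. The submitters' processing notes name RMA and limma, with versions not given in the sources used here. The 6 arrays had medians from 4.40 to 4.54 and all 6 columns were used. Arrays of 1 fraction correlated between 0.952 and 0.972, none being identical. Precision is set by the small number of arrays, leaving 2 residual degrees of freedom for each probe set.

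The two-sided fit used limma 3.58.1 (R 4.3.3), took in the whole array of 45141 probe sets with its 104 controls, and had the mouse as a fixed block. The pairing comes from the labels, and the deviations of same-mouse arrays from the fraction means correlated at 0.122, 0.0758 and 0.109, against -0.086 to -0.0217 for different mice. In the platform annotation 28898 probe sets have 1 gene, 551 have several and 15692 have none. Each gene was represented by its highest-mean probe set. Other probe sets were given only for the mucosal and collagen-binding integrins, and not for the remaining genes. Promoter windows came from RefSeq and gene overlaps from its gene table, and since the deposited values name no genome build no other coordinates are given. Lower bounds of folds take a mean below the background level at that level.

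The integrins and the gene lists were chosen with earlier results of these data known. Genes named were the 6 integrins, up to 4 list genes past the threshold by size of difference, up to 4 others with a known role, genes overlapping an integrin and the 3 nearest in profile. Not every gene the rule allows is named. Alternatives were no block, a random block, filters, cyclic loess, centring on the median or on the CD3 chains, other prior variances, leaving out each mouse, and averaging all probe sets of a gene.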

Additional observations from a re-analysis of the deposited data

How the results depend on the processing

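Without the replicate block 895 probe sets were called over the whole array and with the mouse as a random replicate block 1128, against 508 as reported. A trended prior variance gave 891. Centring on the CD3 chains gave 22644 and moved the median of all probe sets to 0.65, against -0.09 as reported, so its directions are relative to that shift. Leaving out 1 mouse gave 0 to 392 calls, with 0 without mouse A (5563 at an unadjusted p under 0.05), 177 without mouse C and 392 without mouse D. Of the integrin probe sets, 0 as reported, 1 was called without the replicate block, 1 with the random block and 1 with a trended prior. Among those above the median 1 was called, beside 747 of all 22570 such probe sets. Among those above background 2 were called, beside 701 of 14299. On the CD3 scale 6 of the 14 were called (Itga2, Itga1, 3 of Itga4 and 1426919_PM_at of Itgb1, which was at background), beside 22644 of all 45141 probe sets. None was called when any 1 mouse was left out.

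Itgae (-1.09) passed above background (adjusted p = 0.0419) and at the gene's mean (0.0207). Itgb7 (-0.37) passed with a trended prior (0.0415). Itga2 (1.37) passed without the replicate block (0.0164), with the random block (0.0117), above the median (0.0426), above background (0.0323) and at the gene's mean (0.0215), and on the CD3 scale reached 2.11 (6.76e-05). Itga1 passed only on the CD3 scale, at 1.75 (0.000366). It gave no value above background, since it was filtered out. On that scale Itgae was at -0.35 (0.212).

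The CD3 scale reversed Itgb7 (0.37), Itga4 (0.55), Itgb1 (0.38), Itgb3 (0.34), Tgfbr2 (0.14), Xcr1 (0.48), Pacs1 (0.37), Slfn1 (0.32), Ikzf3 (0.41), Lrp10 (0.50), Erdr1 (0.59), Lrrfip1 (0.55), Ccng1 (0.49), Galk2 (0.38) and Hspa9 (0.44). For these the cause is that centring, which adds the same amount to every gene of an array. For other changes the cause was not tested.

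Leaving out 1 mouse at a time, Itgae ran from -1.15 to -1.05, Itgb7 from -0.39 to -0.36, Itga4 from -0.29 to -0.06 (without mouse D), Itgb1 from -0.48 to -0.29, Itga2 from 1.22 to 1.51 and Itga1 from 0.89 to 1.23. The 59 other named genes gave 702 values under the alternatives, of which 569 kept their direction and side of the threshold, 69 lost the threshold, 52 gained it and 12 reversed. Signals near background, such as those of Itga1 and the CD11c+ cells for Itgae, are limited by the dimness of the probe sets.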

Other observations

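Itga2b and Itgb3 encode the 2 chains of the platelet fibrinogen receptor. Itga2b read 7.84, 8.56 and 8.73 in CD11c+ cells of mice A, C and D, against 6.16, 6.18 and 5.90 in the CD11c- cells, and rose by 2.30 (adjusted p = 0.049). Itgb3 read 7.97, 7.75 and 7.82 in CD11c+ cells, against 8.17, 8.46 and 8.12 in CD11c- cells, a difference of -0.40 (adjusted p = 0.405) that turned to 0.34 with the arrays centred on the CD3 chains.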
